A study of Mus musculus with 2 samples.

Results

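CpG-dense regions inside gene bodies are stretches of DNA within a gene, away from both of its ends, where CpGs lie close together. They were found on the autosomes as 500 bp windows, moved in steps of 100 bp, that held at least 20 CpGs, and overlapping windows were merged. A region was kept when it lay wholly inside a protein-coding RefSeq gene, at least 1 kb from the ends of every annotated gene, and had at least 20 reads. Of 41093 measured autosomal CpG-dense regions, 11641 were intragenic by this rule, in 5922 host genes. Another 789 of 12430 intragenic regions had under 20 reads and were not measured. DNA methylation had been read genome-wide by bisulfite sequencing in the epiblast of female (XX) wild-type mice of the strain C57Bl6/J, taken at embryonic day 6.5. The embryos came from natural matings without culture, the epiblast was separated by hand, and sex was typed by PCR on extraembryonic tissue. Both samples of this group, the whole series, are given as 1 pooled table of counts, so replicate error is unknown throughout and no test between samples was possible. Gene expression, by which the labelled tissue could be checked, was not measured in these samples. Comparisons are between parts of the genome of the same pool, and a level is an average over all cells and both parental alleles.

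In mammals most CpGs are methylated, and CpG islands, where CpGs are dense, are the main exception. Islands at gene starts are usually kept free of methylation, whereas the transcribed body of a gene is usually methylated. Islands within genes can hold alternative promoters, coding exons or the control regions of imprinted genes, in which methylation is carried by the allele of 1 parent. The epiblast at this stage has regained most of the methylation that was erased in the cleavage embryo.

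The sequence around transcript starts that fall inside such regions shows the contrast in CpG content between low, intermediate and high regions. RefSeq places at least 1 start of the host gene inside 924 of the 9143 regions whose host has a start in the table used, and the windows below run from 250 bases before to 50 bases after such a start. They were chosen after their values were seen, a pair for each call. For a host with several such starts, the window with the most CpGs was taken. Coordinates are on the build GRCm38.p6, the assembly behind mm10, each sequence reads 5′ to 3′ on the strand of the gene, and capitals mark CpGs.
Dnmt3a, low, chr12:3806910-3807209, plus strand: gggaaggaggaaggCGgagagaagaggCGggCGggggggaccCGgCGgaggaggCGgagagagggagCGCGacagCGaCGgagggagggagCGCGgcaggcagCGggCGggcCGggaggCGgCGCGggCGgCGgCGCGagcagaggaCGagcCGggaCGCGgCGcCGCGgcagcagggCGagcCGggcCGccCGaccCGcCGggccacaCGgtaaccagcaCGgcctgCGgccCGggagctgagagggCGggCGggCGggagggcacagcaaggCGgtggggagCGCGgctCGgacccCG
Arid1a, low, chr4:133753936-133754235, minus strand: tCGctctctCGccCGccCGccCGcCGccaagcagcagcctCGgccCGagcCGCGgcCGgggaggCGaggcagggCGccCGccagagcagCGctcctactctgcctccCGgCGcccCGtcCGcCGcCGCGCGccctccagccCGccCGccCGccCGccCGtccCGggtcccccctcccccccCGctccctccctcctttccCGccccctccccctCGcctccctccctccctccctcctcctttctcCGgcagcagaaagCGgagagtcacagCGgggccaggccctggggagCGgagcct
Mest, intermediate, chr6:30737800-30738099, plus strand: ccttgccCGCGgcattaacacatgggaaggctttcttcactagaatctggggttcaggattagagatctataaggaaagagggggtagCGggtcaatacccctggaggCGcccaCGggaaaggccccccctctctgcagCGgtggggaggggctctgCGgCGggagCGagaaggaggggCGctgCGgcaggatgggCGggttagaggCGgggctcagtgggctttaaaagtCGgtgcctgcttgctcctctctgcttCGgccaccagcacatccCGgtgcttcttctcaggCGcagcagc
Rnf212b, intermediate, chr14:54813900-54814199, plus strand: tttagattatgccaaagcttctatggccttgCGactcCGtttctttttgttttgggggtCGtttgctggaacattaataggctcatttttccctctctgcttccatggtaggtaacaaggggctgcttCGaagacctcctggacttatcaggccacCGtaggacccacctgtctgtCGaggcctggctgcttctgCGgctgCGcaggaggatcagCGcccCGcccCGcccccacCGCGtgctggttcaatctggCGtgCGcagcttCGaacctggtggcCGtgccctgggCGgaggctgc
Vegfa, high, chr17:46025114-46025413, minus strand: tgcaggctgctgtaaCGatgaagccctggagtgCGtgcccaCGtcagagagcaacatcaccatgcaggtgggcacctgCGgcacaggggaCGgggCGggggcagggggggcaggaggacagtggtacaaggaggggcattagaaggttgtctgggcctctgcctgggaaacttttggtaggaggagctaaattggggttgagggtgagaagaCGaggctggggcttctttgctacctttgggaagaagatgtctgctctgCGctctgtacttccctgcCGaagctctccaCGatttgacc
Zap70, high, chr1:36778734-36779033, plus strand: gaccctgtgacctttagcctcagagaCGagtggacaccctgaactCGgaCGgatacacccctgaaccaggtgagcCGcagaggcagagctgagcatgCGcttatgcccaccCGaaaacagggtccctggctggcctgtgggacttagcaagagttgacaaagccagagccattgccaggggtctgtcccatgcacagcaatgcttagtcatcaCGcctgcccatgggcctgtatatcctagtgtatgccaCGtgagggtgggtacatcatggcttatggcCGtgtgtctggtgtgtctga

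The window of Dnmt3a, which encodes a de novo DNA methyltransferase, held 47 CpGs and was at 3.70% methylation (exact Clopper-Pearson 95% interval 1.71% to 6.91%, 243 reads). Arid1a, a subunit of the SWI/SNF chromatin remodeling complex, had 36 CpGs in its window and a level of 3.87%. Mest, which is imprinted and expressed from the paternal allele, had 17 CpGs at 37.3%. The window of Rnf212b, a relative of the meiotic crossover factor Rnf212, had 18 CpGs at 46.6%. Vegfa, the vascular endothelial growth factor, had 10 CpGs in its window at 75.9%. The window of Zap70, a kinase of T cell receptor signaling, had 9 CpGs at 89.5%. These chosen windows differed in CpG number in the order of their calls. Over all 1097 host starts inside intragenic regions, the median number of CpGs in the window was 21 for 981 windows in low regions, 14 for 39 in intermediate regions and 10 for 17 in high regions, compared with 7 over all 31396 autosomal start windows. The rule selects for CpGs, so a higher CpG number and a different share of CpG-bearing motifs than in all start windows follows at least in part from the choice of regions. The letters GGGCGG, a core of the Sp1 family's motif, were searched on both strands. They stood in 70.4% of the windows in low regions, 38.5% in intermediate and 5.88% in high regions, compared with 35.98% of all start windows. The motif itself holds a CpG, so its share and CpG number are not separate measures. The letters TATAAA, searched in the same way, were found in 4.79% of the windows in low regions and in 13.6% of all start windows. The share of G and C bases had a median of 63.3% in the former and 53% in the latter. The TATAAA share is thus not separate from the choice of regions either.

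Each region's level is its methylated reads over all its reads, with both strands of each CpG added. Low regions have an interval that ends under 20%, high regions one that begins over 60%, and intermediate regions one that fits between 20% and 60%. All others are unresolved. The intervals cover no error beyond counting, and they treat every count as independent. A read is counted at each CpG it spans, and the counts carry no molecular identifiers. The intervals are therefore likely too narrow even for counting error, and the calls rest on them. Intragenic regions had a median of 232 reads and 9 reads per CpG, which gave a median interval 10.04 points wide. Depth differed by place, with 3.59 reads per CpG in intergenic regions and 11.03 at gene ends.

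Most intragenic CpG-dense regions were methylated, with a median level of 75.6% (quartiles 33.8% and 86.7%). High calls made up 58.3% (6787 regions), low calls 17.1% (1986 regions) and intermediate calls 9.47% (1102 regions), and 1766 regions were unresolved. Over all autosomal CpG-dense regions the shares were 41.4% high, 36.8% low and 7.36% intermediate. Intergenic regions, at least 1 kb from every gene, had a median of 79.0%, and 6.31% of 11342 were low. Regions at or within 1 kb of a gene end had a median of 7.99%, and 73.6% of 16627 were low. Intragenic regions therefore lay between these sets in their share of low calls, and close to the intergenic ones in their median. The distribution had its highest point at 80% to 90%, with 3280 regions, and a separate one under 10%, with 1326 regions. Fewest regions, 342, lay between 30% and 40%.

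**Figure D1:**
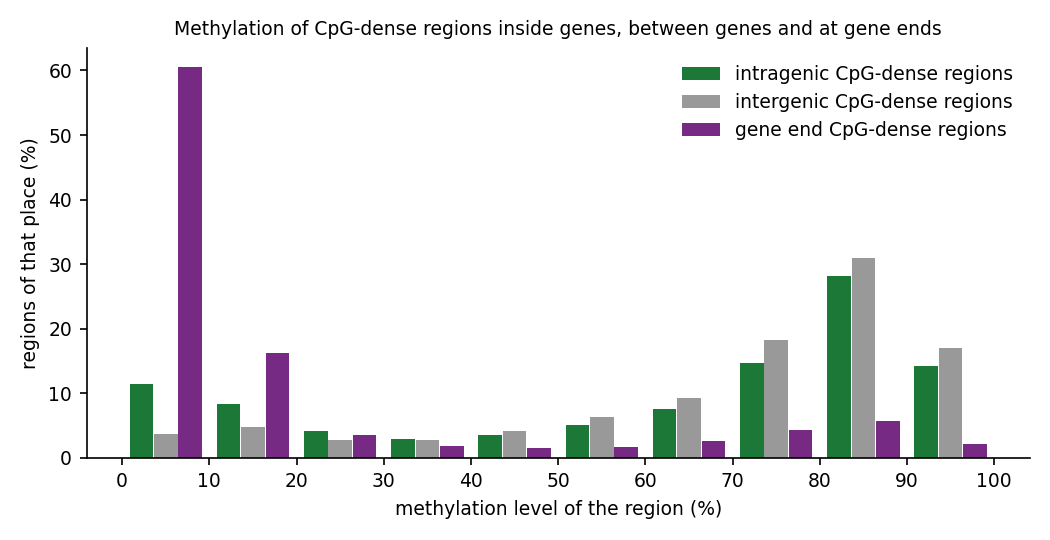
Methylation level of CpG-dense regions in classes of 10 percentage points (horizontal axis, %) against the share of the regions of each place (vertical axis, %). Green bars stand for the intragenic, gray for the intergenic and purple for the gene end regions. Intragenic regions have 28.2% of their number at 80% to 90% and 11.4% under 10%, whereas 60.5% of the gene end regions are under 10%.

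CpG density separated methylated from unmethylated regions. With 20 to 24 CpGs in the densest 500 bp window, 6459 intragenic regions had a median of 81.1% and 4.21% were low. The median was 76.9% at 25 to 29 CpGs (2151 regions), 60.2% at 30 to 39 (1734 regions), 10.3% at 40 to 49 (518 regions) and 6.03% at 50 or more (779 regions). The share of low regions was 9.95%, 23.6%, 70.3% and 93.2% in the same 4 classes. At 30 to 39 CpGs the quartiles were 17.7% and 83.4%, so both states were common there. At 50 or more CpGs only 3 regions were high, 0.385%. The median of the densest class minus that of the least dense one was -75.05 points, and their quartile ranges did not overlap.

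Intergenic regions of like density were more often methylated in the middle classes. At 30 to 39 CpGs, 23.6% of the intragenic and 7.998% of the intergenic regions were low, with medians of 60.2% and 75.9%. At 40 to 49 CpGs, 70.3% of the intragenic and 45.6% of 241 intergenic regions were low, with medians of 10.3% and 33.0%. Both were near their extremes at 50 or more CpGs, with medians of 6.03% and 6.47%, and at 20 to 24 CpGs, with 81.1% and 79.4%. Gene end regions were low far more often at the same density, 76.6% of them at 30 to 39 CpGs. Low regions were also the more deeply read, with 11.3 reads per CpG in low and 7.95 in high intragenic regions, and among intragenic regions with up to 2 reads per CpG only 0.434% were low, compared with 26.2% at 8 to 16. The part of depth in these differences was not tested. Among the 6963 intragenic regions with 8 or more reads per CpG, the densest minus the least dense class was -73.2 points.

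**Figure D2:**
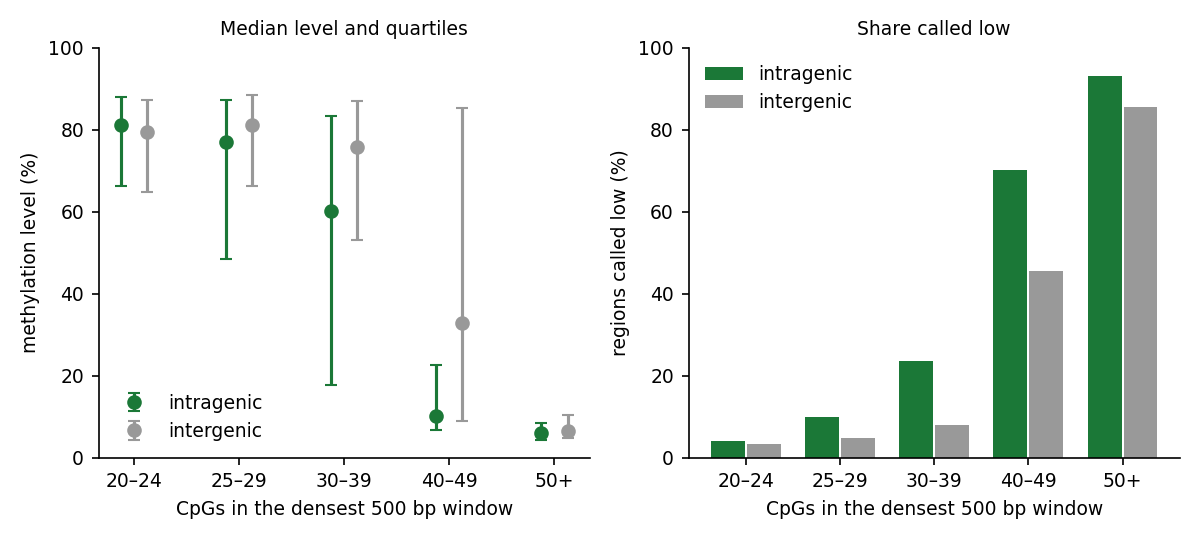
Methylation by CpG density, the number of CpGs in the densest 500 bp window of a region (horizontal axes), for intragenic (green, left) and intergenic regions (gray, right). The left panel gives the median level and quartiles (%), and the right panel the share of regions called low (%). Low calls reach 93.2% of the intragenic and 85.6% of the intergenic regions at 50 or more CpGs.

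Width and total CpG number followed the same order. Regions with 20 to 29 CpGs in all had a median of 81.0% and those with 100 or more had 6.38%, with 85.1% of these 625 regions low. Low regions had a median width of 1200 bp and 67 CpGs, compared with 700 bp and 25 CpGs in high regions.

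Of the 8 low regions with the most CpGs, each lay in a methylated gene body except that of Skor1. Ubtf, a factor of RNA polymerase I transcription, held the largest one, with 417 CpGs at 5.51% (interval 4.85% to 6.22%, 4377 reads) over chr11:102316301-102320900. Pdgfa, a growth factor ligand, had 342 CpGs at 4.78%, and the rest of its body was at 76.2%. Dnmt3a had 298 CpGs at 2.95% (2.40% to 3.58%, 3326 reads) over chr12:3806001-3808700, compared with 73.9% for the rest of its body. Its 64 other intragenic dense CpGs, in a separate region, were at 7.0%. Arid1a had 323 CpGs at 3.43%, Nr3c1, the glucocorticoid receptor, 303 at 3.11%, Ebf3, a developmental transcription factor, 298 at 4.75%, and the zinc finger gene Zfp316 298 at 7.04%. In Skor1, a corepressor of neural cells, 359 CpGs were at 9.55% in a body that was itself at 13.8%.

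The high regions with the most CpGs had between 30 and 54 CpGs in their densest 500 bp, compared with 58 to 90 in the low ones just named. Plec, the cytoskeletal linker plectin, held a region of 368 CpGs at 67.4% (66.0% to 68.9%, 4166 reads). That region was not even, with 84.3% in the left and 53.3% in the right set when its CpGs were split evenly. A second region of Plec, of 210 CpGs, was at 92.1%. Zfhx3, a homeodomain and zinc finger factor, had 154 CpGs at 91.9%. CpGs without a read count in this ranking. S100a7l2, of the S100 protein family, had 317 CpGs, but only 81 of them had a read, and these gave 91.0% with 434 reads. Filip1, which binds filamin, had 280 CpGs, of which 146 had a read, at 86.1%. Scaf1, an SR-related splicing factor, had 142 CpGs at 82.6%, up to 54 of them in 500 bp, and so was 1 of the 3 high regions of the densest class. Lmtk3, a membrane kinase, was at 68.5%, with 60.8% in its left and 76.1% in its right set. Bptf, of the NURF remodeling complex, was at 66.2%, with a read at 83 of its 147 CpGs. Its sets were at 72.2% and 57.4%. The other high regions named here differed less between their sets.

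In intermediate regions most CpGs were themselves at intermediate levels. Among CpGs with at least 5 reads, the median intermediate region had 72.0% of them between 20% and 80%, compared with 9.09% in low and 27.6% in high regions. The calls rest on the levels of these same CpGs, so this order is favored by the call itself. The CpGs of an intermediate region, split evenly into a left and a right set, differed between the sets by a median of 11.1 points, and by over 20 points in 25.4% of 1015 regions. The same median was 3.17 points in low and 5.07 points in high regions. An intermediate level in a pool can come from alleles, cells or molecules that differ, and the table, which holds no reads, cannot separate these.

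The intermediate regions with the most CpGs included the imprinted Gnas, with 256 CpGs at 38.6% (36.7% to 40.5%, 2552 reads), and the imprinted growth inhibitor Grb10, with 159 CpGs at 22.9%. The other 6 were not on the list of imprinted hosts. Tnxb, an extracellular matrix tenascin, was at 26.6% over 189 CpGs. Bcl11b, a transcription factor of T cells and neurons, was at 42.0% over 187 CpGs (2406 reads). Shroom3, which acts in apical constriction, was at 34.9%, Lingo3 at 33.8%, Apc2, a relative of the Wnt regulator Apc, at 48.97%, and the neural factor Npas3 at 22.8%.

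Around the centers, the 3 kinds of region had different surroundings. Pooled over all reads, low regions were at 5.55% within 100 bp before the center, at 33.2% about 1 kb away on either side, and at 47.6% and 53.5% at 5 kb before and after it. Intermediate regions had 33.5% at the center and 58.4% at 1 kb before it. High regions were at 82.7% at the center, above the 68.1% and 69.9% measured 5 kb away. These averages include other CpG-dense sequence nearby.

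**Figure D3:**
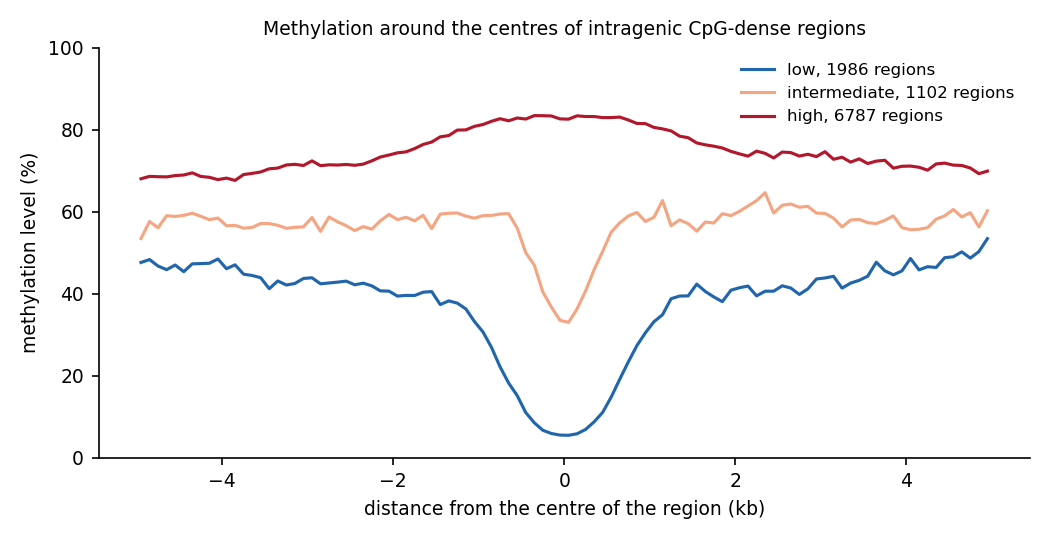
Methylation level (vertical axis, %) in bins of 100 bp by distance from the center of the region (horizontal axis, kb), pooled over reads for low (blue), intermediate (orange) and high (red) intragenic regions. Low regions fall to 5.50% at the center, intermediate ones to 33.0%, and high regions are at 82.7% there.

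Set against the rest of its own gene body, without any CpG-dense region or gene end, a region differed by a median of -1.49 points (quartiles -32.4 and 7.11 points, 11632 regions). The median body was at 76.9%. This small median difference changed sign with the distance rule: at 5 kb or more from every gene end it was 0.542 points. Over all regions, 2554 (21.96%) were at least 40 points below their body and 310 at least 20 points above. The median difference was -65.1 points for low and -32.2 points for intermediate regions. For high regions it was 5.75 points, and 78.2% of 6782 were above their body, compared with 46.8% of all regions. The calls rest on the same levels, so these directions are favored by the call itself. Hosts of a low region had bodies at a median of 74.9%, compared with 78.2% in hosts without one.

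Levels differed along the gene in the direction of transcription. Orientation was known where the start table held the host, for 9143 regions. In the first 10% of the gene's length the median was 16.1% and 49.6% of 675 regions were low. In the next 10% the median was 64.2% with 30.8% low, between 40% and 50% of the length it was 74.6% with 17.4% low, and in the last 10% it was 81.3% with 4.28% low of 1121. The order was present at fixed density. At 40 to 49 CpGs, 92.9% of 127 regions were low in the first 20% of the gene and 38.9% of 54 in the last 20%. At 20 to 24 CpGs these shares were 11.02% and 2.42%.

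**Figure D4:**
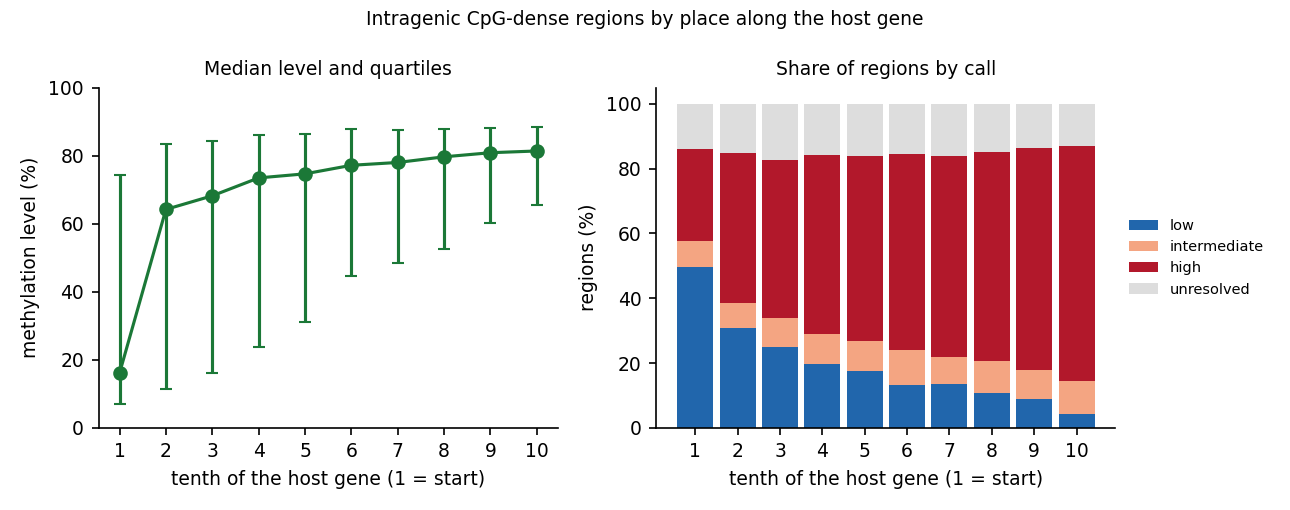
Intragenic CpG-dense regions in 10 equal parts of the host gene in the direction of transcription (horizontal axes, 1 at the start). The left panel gives the median level and quartiles (%), the right panel the share of regions called low, intermediate, high and unresolved (%). The median is 16.1% in the first and 81.3% in the last of them.

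Both ends of a gene were not alike. For regions with known orientation, distance was taken along the host to its own nearer end, whatever other genes lay closer. At 1 to 2 kb, regions nearer to the start of their host had a median of 12.02% (401 regions, 58.1% low). Regions nearer to its far end had a median of 76.9% (536 regions, 12.9% low). At 2 to 5 kb the medians were 17.96% and 79.0%, at 5 to 10 kb 58.0% and 79.2%, and beyond 50 kb 77.4% and 77.7%. At that distance the shares of low regions were 9.97% on the side of the start and 10.3% on the far side, a difference of under 1 point. A different distance, to the nearest end of any gene and without regard to orientation, was used for all intragenic regions. By it, regions at 1 to 2 kb had a median of 52.8%, and their difference from those over 20 kb away was -26.3 points. This pools all densities, and the difference was uneven over them. At 20 to 24 CpGs the medians were 78.6% at 1 to 2 kb and 81.9% at 20 to 50 kb. At 30 to 39 CpGs they were 17.1% and 72.5%, and at 50 or more CpGs 6.05% and 6.45%. Short hosts held more low regions, 25.8% of 666 in genes up to 10 kb long and 9.77% of 1995 in genes over 300 kb, without regard to density or distance from gene ends.

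Many low regions held an annotated transcript start of their host. With a start of the host inside, 821 of 924 regions (88.9%) were low, 33 were intermediate and 17 were high, and the median was 7.02%. With no start within 1 kb, 710 of 8061 (8.81%) were low and the median was 78.9%. The difference held at fixed density: at 20 to 24 CpGs, 51.4% of 107 regions with a start inside and 3.05% of 4882 without one nearby were low. At 50 or more CpGs the shares were 99.02% of 408 and 82.7% of 226. Of 1599 low regions with a known orientation, 51.3% held a start of the host, 44.4% had none within 1 kb, and 177 had none within 20 kb. The start table is not complete, and its gaps are not spread evenly. It holds no start on chromosome 18, where 346 of the intragenic regions lie. In all, 2498 regions have a host without a start in it. A low region without a start is thus one without a start in that table. Exons and introns were not analysed here.

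The 5 low regions farthest from any gene end lay in very long genes. In 3 of them, those of Nrxn3, Dab1 and Nckap5, RefSeq places a start of the host inside the region. In Nrxn3, a presynaptic adhesion protein, a region of 44 CpGs lay 522 kb from the nearest gene end and was at 5.78% (3.84% to 8.30%, 467 reads). Dab1, of the reelin pathway, had 182 CpGs at 7.40% at 339 kb. Nckap5 had 32 CpGs at 6.65% at 338 kb, Rims1, of the presynaptic active zone, 126 at 4.75% at 247 kb, and Rbfox1, a splicing factor, 72 at 16.4% at 242 kb. Their bodies were between 68.8% and 77.7%.

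Several regions of the same gene often differed. Of 2480 hosts with 2 or more regions, 602 (24.3%) had both a low and a high one, 779 had high ones alone and 60 low ones alone. The median range within a gene was 28.0 points. In 87.0% of the 602 genes the densest low region was denser than every high one. In 358 of 488 with known orientation (73.4%) the first low region lay upstream of the first high one.

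The widest gap was in Mical3, an actin-oxidizing enzyme, with 90 CpGs at 2.59% (1.73% to 3.72%, 1082 reads) and 27 CpGs at 96.0% (92.5% to 98.1%, 223 reads). Wdfy3, an adaptor of selective autophagy, had 4.35% and 95.6%. Ipo5, a nuclear import receptor, had 2.73% and 92.5%. Auts2, a neurodevelopmental gene, had 5.05% and 94.2%, Ahdc1 1.41% and 90.5%, Nek6, a mitotic kinase, 3.67% and 92.6%, and Rfx1, a transcription factor, 5.11% and 94.0%. Fat1, an atypical cadherin, held 19 regions. Of these, 2 with 107 and 157 CpGs were at 5.86% and 3.55%, and the other 17 were between 81.5% and 95.4%, among them one of 132 CpGs at 90.3%.

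Gse1 held the most regions, 29, with 1 low, 6 intermediate and 17 high calls between 8.30% and 92.2%. Tiam1, an exchange factor of Rac, had 23 of 26 regions high, and the citron kinase gene Cit had 23 of 24 high, with a lowest region at 49.3%. Wwox had no low region among 23. Kmt2d, a histone H3 lysine methyltransferase named here after its values were seen, had 8 regions between 84.5% and 93.4% and 1 of 151 CpGs at 5.59%. Lrp1, an endocytic receptor, had 14 of 15 regions high and none low.

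Host genes were grouped in lists, read against the 17.1% low, 9.47% intermediate and 58.3% high of all intragenic regions. Developmental transcription factors stood lowest, with a median of 22.8% over 393 regions in 124 genes, and 151 (38.4%) were low. Zinc finger genes named Zfp had 21.9% low of 233 regions, with a median of 80.2%. Chromatin regulators had a median of 85.4% with 14.9% low of 168, and genes of DNA repair and the cell cycle a median of 86.0% with 10.6% low of 66. Extracellular matrix genes had 8.33% low of 96, cytoskeleton and motor genes 9.12% of 296, and cadherins 9.40% of 149, with 17.4% intermediate. Genes of developmental signaling (17.0% low of 147), axon guidance (15.4% of 136), ion channels (14.5% of 275) and synaptic receptors and scaffolds (13.3% of 203) were near the share of all regions.

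**Figure D5:**
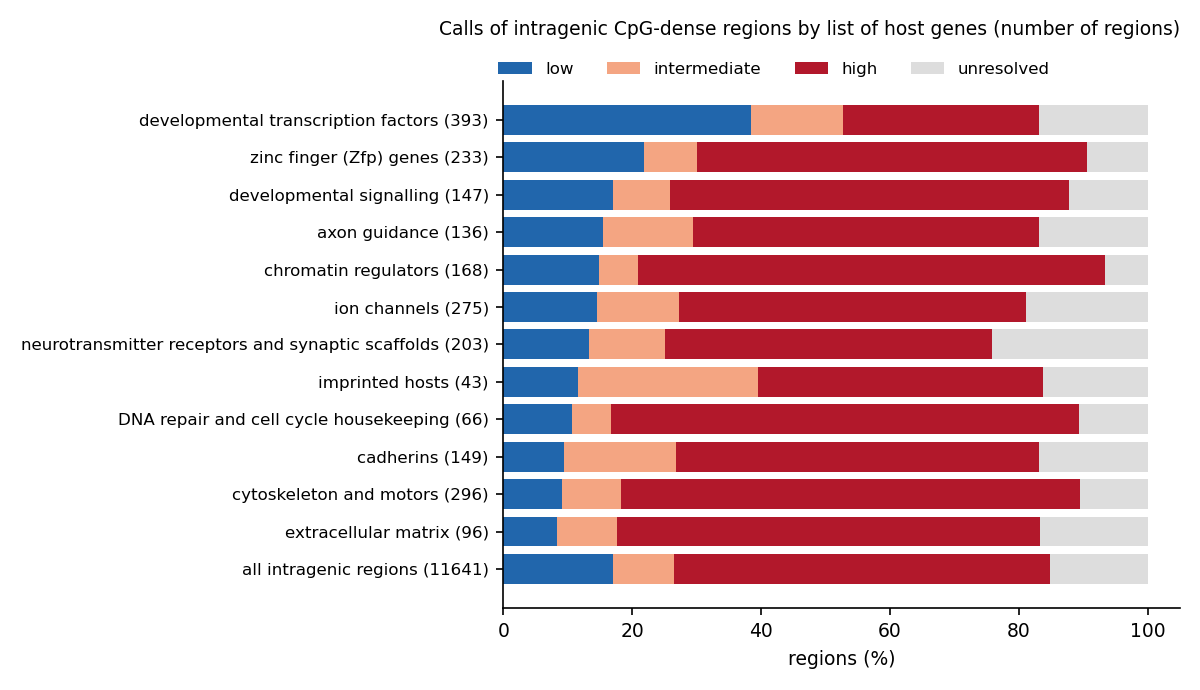
Share of intragenic CpG-dense regions called low (blue), intermediate (orange), high (red) and unresolved (gray) by list of host genes, with the number of regions in parentheses and all intragenic regions as the bottom bar (horizontal axis, %). Developmental transcription factors have 38.4% low, compared with 17.1% of all regions, and imprinted hosts 27.9% intermediate, compared with 9.47%.

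Below 40 CpGs in the densest window, the developmental factors were lower at equal density too. At 20 to 29 CpGs in the densest window, their median was 52.3% over 245 regions, compared with 80.4% over all 8610, and 17.1% were low, compared with 5.64%. At 30 to 39 CpGs the medians were 14.7% and 60.2%. At 40 or more CpGs they were not lower, with medians of 8.46% and 7.16% and 86.3% and 84.0% called low. Pax6, a regulator of eye and brain development, had 9 regions between 8.02% and 26.8%, none of them high. Nfix, a nuclear factor I gene, had 8 regions between 1.39% and 29.5%, again with none high. The lowest of its regions had 22 CpGs at 1.39% (0.287% to 4.005%, 216 reads), and was the lowest of the whole list.

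Other factors of the list did hold high regions. Prdm16, a regulator of brown fat and blood stem cells, had 17 regions between 24.1% and 81.0%, 8 of them high and none low. Zfhx3 had 3 low, 4 intermediate and 12 high regions, with a region of 201 CpGs at 3.92% and the one of 154 CpGs at 91.9%. Ebf3 had its 4 low regions together, with 298, 159, 46 and 61 CpGs at 4.75%, 7.32%, 10.3% and 7.42%, and 4 high regions elsewhere, up to 89.9%. Prdm15 held the highest region of the list, at 95.1%.

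In 27 host genes with at least 200 body reads the rest of the body was itself under 20%. The lowest were Lhx5 at 12.01%, Sp8 at 12.2%, Osr1 and Osr2 at 13.2% each, and Hoxd10 and Evx2 at 13.7% and 13.8%, which encode transcription factors. Others among the 12 lowest were Icam5, an adhesion protein, at 15.0% and Slitrk1, a synaptic membrane protein, at 15.5%. The span of Lhx5 is 9572 bp and that of Sp8 6291 bp.

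Hosts linked to imprinting held 43 measured regions in 27 genes, of which 12 (27.9%) were intermediate, compared with 9.47% of all intragenic regions. Mest had both of its regions intermediate, 24 CpGs at 43.6% (37.2% to 50.2%, 236 reads) and 118 CpGs at 42.4% (39.4% to 45.3%, 1107 reads). Impact was at 28.5% over 133 CpGs and Inpp5f at 49.4% over 84 CpGs. Cdh15 was at 49.1% and Dlk1, a delta-like protein of growth and fat cell differentiation, at 33.4%. Kcnq1, a potassium channel, had a region at 32.2% (25.2% to 39.7%, 171 reads) and another at 81.7%. The strands of the former differed, with 18.5% on the plus and 44.4% on the minus strand. Zdbf2 had regions at 51.3%, 56.5% and 19.3%, of which the first was intermediate and the others unresolved. Fkbp6 was at 57.6% and unresolved, since its interval reached 61.9%.

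Not all regions of such hosts were intermediate. Igf2r, which clears the growth factor IGF2, was at 93.3% and 85.6% in 2 neighboring regions. These lay 81.3 kb and 80.3 kb from the start of the gene. Peg3 was at 95.1% in a region 19.3 kb from its start. The rule leaves out CpG-dense regions within 1 kb of any gene end, so such regions of imprinted hosts are not described here. Low regions were found in Igf2 at 5.44%, Commd1 at 9.09%, Osbpl5 at 13.9% and Begain at 6.10%, where another region was at 84.8%. Snrpn, whose annotated span is long, had 7 regions from 3.97% to 90%, with 20 to 263 reads each. The low one, with 227 reads, had an interval of 1.83% to 7.39%, whereas the highest rested on 20 reads (68.3% to 98.8%).

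Some regions had regularly spaced CpGs. In 162 regions over 50% of the CpGs recurred at a single distance of 10 to 200 bp, as in tandem repeats. Of these, 77.2% were high and 0.617% low, compared with 58.0% and 17.3% of the other 11479. Depth was lower there, 3.63 reads per CpG compared with 9.05. Among all intragenic regions with over 2 to 4 reads per CpG the shares were 74.1% high and 0.541% low. Examples were Prkce, a protein kinase C gene, with a spacing of 25 bp and 79.9%, and Syne1, a nuclear envelope spectrin, with a spacing of 49 bp and 78.3%. Mpp7, of chromosome 18, stood apart, with 100 CpGs, a spacing of 12 bp and 17.6% (12.4% to 23.8%, 188 reads).

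Both strands gave like levels. In 10314 regions with at least 20 reads on each strand the median gap between plus and minus was 4.44 points, and 103 had a gap over 30 points. Of 1981 low regions measured on both, 1626 were low on each strand alone. Medians of intragenic regions differed between autosomes, from 66.2% on chromosome 7 to 79.9% on chromosome 12, and the share of low regions was lowest on chromosome 10, at 13.7%, and highest on chromosome 7, at 22.3%.

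The values beside the limits of the rule show how far it shaped the set. Regions with 20 or 21 CpGs in the densest window had a median of 81.6%, and those just outside, with 18 or 19, had 82.3%. In the 200 bp just beyond the limit of 1 kb from a gene end the median was 38.8%, compared with 35.95% in the 200 bp before it. With 20 to 29 reads the median was 86.3%, compared with 85.7% with 10 to 19 reads.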

How the data were processed

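Methylated and unmethylated reads were counted on each strand of each CpG, and the authors deposited these counts as 1 table without sample columns which was taken as the pool of both samples. Bismark 0.12.5, Bowtie2 2.1.0, cutadapt 1.3 and the build mm10 are named in the submitters' processing notes, without their roles. How samples were combined, and whether duplicate reads were removed, is not given in the sources used here. Duplicates would narrow the intervals without adding information. Autosomal CpGs, 20383623 in number, had 133245671 read counts in all, with a median of 6 each, and 89.9% had a read.

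Strands were added, and windows, regions, levels and exact Clopper-Pearson 95% intervals were computed with Python 3.11.15, numpy 2.4.6, pandas 2.3.3 and scipy 1.17.1. The region finder and the calls were tested on simulated data. Genes came from a RefSeq table of GRCm38.p6 without strand or exons. A region inside more than 1 protein-coding gene, as for 124 regions, was given to the shortest. Strand and starts came from RefSeq start windows of GRCm38.p6, which matched 4647 of 5922 hosts and none on chromosome 18. The CpG positions of all 31396 autosomal windows were those of the deposited table. A host's body is its CpGs at least 1 kb from the ends of every annotated gene and outside every CpG-dense region. Host lists were matched by symbol, and 1 of the 13 is not reported here.

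The members, the lists and the tests were chosen with earlier results of these data known. Named, among regions with at least 200 reads and without Gm or Rik hosts, were the 8 low, 8 high and 8 intermediate regions with the most CpGs, the 8 genes with the widest gap between a low and a high region, and the 5 low regions farthest from a gene end. Every measured region of imprinted hosts could be named, and the lowest and highest of each other list. Other genes, such as those with the most regions, with low bodies or with regular spacing, Pax6, Prdm16 and the genes of the printed windows, were chosen after their values were seen. No per-sample error exists and regions do not replicate each other, hence the text holds no p-values. Alternatives are given in the closing section. No paired analysis was possible because the table has no column per sample.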

Additional observations from a re-analysis of the deposited data

How the results depend on the processing

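Of 68 alternative values, 40 kept their size, 27 moved and 1 changed sign. A median counts as moved when outside a 95% order-statistic interval of the main value, and a count when it changed by over 1.5 times. For a difference between classes, the bounds combine the separate 95% intervals of both medians. These intervals treat regions as independent, although regions do not replicate each other, so the labels serve as a yardstick only. The sign changed for the region minus its gene body, -1.49 points in the main setting and 0.542 points at 5 kb or more from every gene end. There, 934 regions were low and 637 intermediate, and the median was 78.2%. Windows of 30 CpGs left 324 intermediate and 659 high regions, a median of 12.6%, -51.2 points against the body and -43.9 points between near and far from gene ends. Minimums of 50 and 100 reads gave medians of 74.5% and 73.1% and body differences of -2.28 and -3.51 points. The plus strand alone gave 74.2% and -2.48 points, the minus strand alone 74.4% and -2.75 points. With low under 10% and high over 80%, 942 regions were low, 3736 intermediate and 2950 high. A pair of settings was added after the data were seen. Ends of protein-coding genes alone gave 74.6%, -2.26 points against the body and -38.8 points between near and far. Regions with 8 or more reads per CpG gave 3371 high regions, 63.4%, -10.1 points, -33.9 points between near and far and -73.2 points between density classes. The causes were not tested, except that stricter minimums and rules leave fewer regions. Call counts have no value for a mean of CpG fractions, nor the density difference for 30 CpGs, nor the near and far difference for 5 kb. Leaving out a replicate was not run, since the table has no column per sample. No paired analysis was possible because of the same pooling. Of all intragenic regions 1766 were unresolved, 354 of 1151 with up to 2 reads per CpG and 884 of 6801 with over 8 to 16, and a sampled read cannot show on which allele methylation lies.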

Other observations

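Some hosts had a methylated start and an unmethylated region inside. Of 2773 hosts whose outermost annotated start could be measured over 500 bp on either side, 303 had a high start, and 80 of these (26.4%) held a low region. Among 2027 hosts with a low start, 344 (17.0%) held one, and the share was 24.2% at intermediate and 27.9% at unresolved starts. In 49 of the 80, RefSeq places a further start of the host inside the lowest region. Sgo2a, a protector of centromeric cohesion, had 6.58% in its region and 88.5% at its outermost start. Egfl7, a secreted factor of endothelium, had 6.78% and 88.2%, and the exchanger gene Slc8a1 2.96% and 82.7%. Runx1, a regulator of blood formation, had 3.20% in its lowest region and 82.9% at its outermost start (72.5% to 90.6%, 76 reads). Conversely, 1179 of the 2027 hosts with a low start (58.2%) had high regions alone, compared with 46.2% of those with a high start. These genes were chosen after their values were seen, and the order by gap picks wide gaps by construction.

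On 1 region the strands gave opposite calls, low on one and high on the other, among 10314 measured on both. The 95th percentile of the gap between strands was 17.8 points.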
